A study of Homo sapiens with 12 samples.

Results

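The response of a rhabdoid tumour cell line to the return of SMARCB1 was measured by RNA sequencing in 6 libraries, 3 from G401 cells in which doxycycline induced SMARCB1 and 3 from G401 cells in which it induced GFP as the control protein. These 6 of the study's 12 libraries were taken by their labels alone, as those treated with the solvent DMSO for 24 hours, and no measured value entered that choice. G401 is an established human cell line labelled as a rhabdoid tumour with the genotype SMARCB1(-/-), so both groups carried the same loss of SMARCB1, received doxycycline and received DMSO, and they differed in the induced protein. All libraries came from this 1 line, and how long doxycycline was given is not stated in the labels. The other 6 libraries held the same pair of induced proteins with dBRD9-A, which brings BRD9 to the degradation machinery, and they served below as a second measurement.

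SMARCB1 is a core subunit of the canonical SWI/SNF complexes, which use the energy of ATP to move or evict nucleosomes at promoters and enhancers. Rhabdoid tumours are aggressive cancers of early childhood that arise in kidney, brain and soft tissue, and loss of SMARCB1 is their defining genetic lesion. SWI/SNF acts in part against Polycomb group proteins, which hold developmental genes in a silent state, and it works with lineage transcription factors at enhancers.

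Each library held 38.4 to 58.5 M gene counts, and replicates of a group had rank correlations of log2 levels between 0.997 and 0.999. Of the variance, 91.2% lay on the first principal component, along which the groups were apart. Synthetic spike-in RNAs made up 1.26% to 1.3% of the counts in GFP libraries and 1.08% to 1.21% in SMARCB1 libraries. SMARCB1 (ENSG00000099956.13) had 0, 1 and 0 counts in the GFP libraries and 69021, 75836 and 110893 counts in the SMARCB1 libraries, a match with the label in each library. The gene count does not tell the induced construct from the chromosomal gene. Vimentin (VIM) was present in both groups, at 1317 ± 26.3 CPM (gene counts scaled to a common library size) in GFP and 2308 ± 63.1 CPM in SMARCB1 libraries (SD, n = 3). Of 8 leukocyte markers, PTPRC, CD3E and MS4A1 had 0 counts in each of the 6 libraries, and CD68 alone made up nearly all of the summed level of 163 to 175 CPM in GFP and 57.5 to 60.9 CPM in SMARCB1 libraries. Summed epithelial markers were at 1.14 to 1.44 CPM, endothelial markers at 0.177 to 0.218 CPM in GFP and 2.08 to 2.41 CPM in SMARCB1 libraries, and kidney markers at 1.04 to 1.4 and 11 to 13 CPM, the last mostly from PODXL. Within the epithelial sum CDH1 rose and EPCAM fell, as given below. Whether such cells or genes had a part in other results was not tested.

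Most expressed genes differed between SMARCB1 and GFP libraries, the larger number of them by small amounts. Of 15524 genes tested, 5280 rose (34%) and 4991 fell (32.2%) with a Benjamini-Hochberg adjusted p under 0.05 from the quasi-likelihood test of edgeR, or 66.2% in all. Only 1266 rose (8.16%) and 958 fell (6.17%) by at least 2-fold, and the median absolute log2 fold change of all genes tested was 0.28. The share of called genes grew with the level, from 40.6% of genes under 1 CPM to 78.8% of genes above 100 CPM, so a list of abundant genes starts from a higher share than a list of rare ones. Counts of higher and lower list members below stand beside the 34% and 32.2% of all genes. Counts of 2-fold changes stand beside 8.16% and 6.17%, shares that were larger among rare genes. Under 1 CPM 521 of 2787 genes rose and 352 fell by at least 2-fold, and above 100 CPM 43 of 2192 rose and 56 fell. A gene at or near 0 counts in one group entered the test only through the other group, so its direction followed from the filter. Libraries of the groups did not overlap for 69.1% of genes. Lack of overlap was also required of the genes named below for the size of their change, so for them it is no separate evidence. The labels do not say that the replicates were separate cultures, so the p-values measure the spread between these samples, which may be technical. In bulk RNA, fewer cells that express a gene and less RNA of it per cell cannot be told apart.

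All directions are relative to the scaling. Under the main scaling the median gene had a log2 fold change of -0.0044, and under scaling to the spike-ins one of 0.1660, with 45.5% of genes higher and 17.2% lower. The labels do not say how the spike-ins were added. A gene group whose direction turned with the spike-in scaling is named as such where it is described. A gene described as higher, lower or going from one level to another passed the test in that direction under both scalings unless the sentence says otherwise. A gene said not to pass did not pass under the main scaling, and most such genes passed as higher with spike-in scaling, as listed near the end. A value given with an SE is a log2 fold change of SMARCB1 over GFP.

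**Figure D1:**
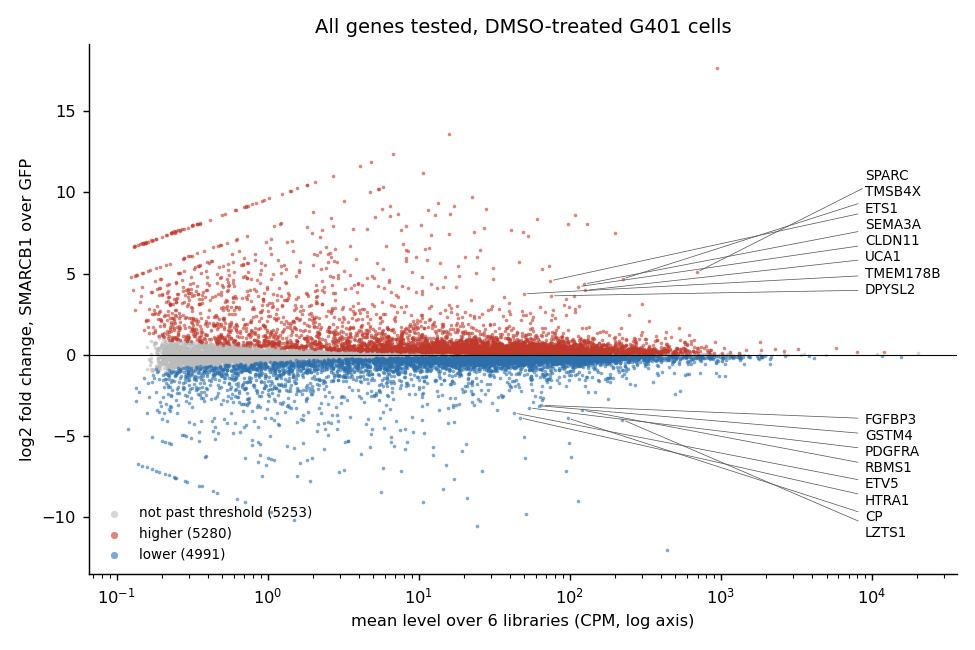
Each point is 1 of 15524 genes, with the mean level over the 6 libraries in CPM on a log axis and the log2 fold change of SMARCB1 over GFP on the vertical axis. Genes past the adjusted p threshold are coloured by direction, and labels mark the 8 genes that rose most and the 8 that fell most with at least 5 CPM in every library. The slanted rows of points at the left are genes at or near 0 counts in one group, whose fitted values have no measured size.

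Among genes with at least 5 CPM in every library, the largest rise was that of SPARC (ENSG00000113140.6), a secreted glycoprotein that binds collagen. It had 39.8, 40.6 and 38.8 CPM in the GFP libraries and 1375, 1346 and 1301 CPM in the SMARCB1 libraries, a 33.8-fold rise (adjusted p 5.55e-19). TMSB4X, the actin monomer-binding thymosin beta 4, went from 16.7, 16.5 and 17.6 CPM to 439, 429 and 420.1 CPM. ETS1, a transcription factor of the ETS family, went from 5.86, 6.03 and 6.25 CPM to 136, 148 and 140.3 CPM. For each of these genes the lowest SMARCB1 library was far above the highest GFP library. The secreted repulsive guidance cue SEMA3A rose by 4.35 on the log2 scale (SE 0.05), the tight junction protein CLDN11 by 4.19 (SE 0.04), the long non-coding RNA UCA1 by 3.96 (SE 0.04), TMEM178B by 3.75 (SE 0.06) and DPYSL2, a cytosolic mediator of semaphorin signals, by 3.62 (SE 0.04).

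The genes with at least 5 CPM in every library that fell most were led by LZTS1 (ENSG00000061337.11), a leucine zipper protein described as a tumour suppressor, which went from 413, 429.9 and 412 CPM in GFP to 26.3, 27.9 and 24.3 CPM in SMARCB1 libraries, 16.1-fold lower (adjusted p 3.44e-17). Ceruloplasmin (CP), a copper-carrying ferroxidase, went from 184, 181 and 180.5 CPM to 11.6, 11.5 and 12.8 CPM. PDGFRA, the receptor for platelet-derived growth factor A, went from 96.8, 97.2 and 98.3 CPM to 10.4, 9.42 and 10.1 CPM. These groups did not overlap either, and the spread within each was small beside the distance between them. The serine protease HTRA1 changed by -3.89 (SE 0.05) on the log2 scale, the ETS factor ETV5 by -3.59 (SE 0.05), the RNA-binding protein RBMS1 by -3.42 (SE 0.03), FGFBP3, a carrier of fibroblast growth factors, by -3.12 (SE 0.06) and the glutathione transferase GSTM4 by -3.15 (SE 0.04). GSTM4 overlaps its close relative GSTM2 (-3.02, SE 0.08) in the annotation, so their reads may be shared.

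The classes of RNA moved unevenly. Of 12394 protein-coding genes, 39.1% rose and 34% fell. Of 507 long intergenic non-coding RNAs 13.4% rose and 31.6% fell, and of 624 antisense RNAs 12.7% rose and 31.6% fell, with median log2 fold changes of -0.22 and -0.22 that were -0.05 and -0.04 with spike-in scaling. LINC03018 was among the abundant ones that fell, from 420.5, 402 and 442 CPM to 117, 112 and 117 CPM. Antisense RNAs can share reads with the genes they overlap, since the sources used here do not give the strand setting of the counting.

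Genes of cell growth were mostly lower in SMARCB1 libraries. MYC (ENSG00000136997.10), a transcription factor that drives ribosome production and growth, had 190.1, 188 and 190.3 CPM in GFP and 62.5, 64.8 and 65.4 CPM in SMARCB1 libraries, 2.95-fold lower (log2 fold change -1.56, SE 0.03, adjusted p 7.44e-15). The highest SMARCB1 library held well under the lowest GFP library. Its partner MAX did not pass the test (-0.12, SE 0.05), although it did, at -0.15 to -0.14, without GFP library 1, SMARCB1 library 1 or SMARCB1 library 2. Among genes that compete with MYC for MAX, MXD4 rose (0.63, SE 0.05) and MNT fell (-0.72, SE 0.10).

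Of 40 genes of ribosome biogenesis, which make and process ribosomal RNA in the nucleolus, 37 fell and 0 rose, against 32.2% and 34% of all genes. Their median log2 fold change was -0.41, and with spike-in scaling 31 fell and 1 rose. NOP16, a factor of the large subunit, had 55.8, 54.1 and 56 CPM in GFP and 30.7, 33.9 and 32.2 CPM in SMARCB1 libraries. POLR1B, a catalytic subunit of RNA polymerase I, had 136, 138 and 135 CPM and 78.3, 83.6 and 79.9 CPM. Neither gene's groups overlapped. NOLC1, a nucleolar chaperone, changed by -0.67 (SE 0.03), nucleolin (NCL) by -0.41 (SE 0.04) and the polymerase I subunit POLR1A by -0.31 (SE 0.04). Fibrillarin (FBL), the methyltransferase of box C/D particles, was among the 3 members that did not pass (-0.02, SE 0.03).

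The promoters of 34 of these genes were in the RefSeq promoter table (GRCh38.p14, 250 bases before to 50 after the gene start). The palindrome CACGTG, the E-box that MYC and MAX bind, stood in 12 of the 34 windows (35.3%), in 7.43% of all 27305 windows of that table, in 10.3% of those of tested genes, in 12.3% of genes that fell and in 8.54% of genes that rose. It stood in 10.5% of windows of genes at least 2-fold lower, 6.76% of those at least 2-fold higher and 4.92% of 61 windows of cytosolic ribosomal protein genes. The letters read the same on both strands. These windows show such promoters from members that fell, PES1 (-0.49, SE 0.03) of the PeBoW complex, MYBBP1A (-0.50, SE 0.04), a nucleolar MYB-binding protein, and IMP4 (-0.44, SE 0.03) of the small subunit processome, each 5′ to 3′ on the gene's strand with the E-box in capitals.
PES1, chr22:30591861-30592160, minus strand: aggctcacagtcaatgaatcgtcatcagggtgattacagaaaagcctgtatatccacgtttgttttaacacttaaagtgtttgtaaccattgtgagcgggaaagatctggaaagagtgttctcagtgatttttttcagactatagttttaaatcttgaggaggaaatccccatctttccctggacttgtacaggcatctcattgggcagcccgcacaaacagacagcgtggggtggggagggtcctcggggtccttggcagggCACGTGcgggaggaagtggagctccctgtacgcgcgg
MYBBP1A, chr17:4555335-4555634, minus strand: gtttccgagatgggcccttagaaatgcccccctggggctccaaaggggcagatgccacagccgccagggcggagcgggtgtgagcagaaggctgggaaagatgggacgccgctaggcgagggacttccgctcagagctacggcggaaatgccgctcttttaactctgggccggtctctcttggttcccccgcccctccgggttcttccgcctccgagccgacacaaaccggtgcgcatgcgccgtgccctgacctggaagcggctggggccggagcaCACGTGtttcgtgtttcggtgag
IMP4, chr2:130342647-130342946, plus strand: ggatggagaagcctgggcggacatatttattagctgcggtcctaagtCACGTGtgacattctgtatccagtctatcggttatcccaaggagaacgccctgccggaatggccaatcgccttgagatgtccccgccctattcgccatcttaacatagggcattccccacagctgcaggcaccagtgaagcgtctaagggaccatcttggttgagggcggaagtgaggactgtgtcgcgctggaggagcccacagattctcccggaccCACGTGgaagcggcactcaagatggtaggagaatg
A match of letters is a description of the window and shows no binding. PES1 and MYBBP1A hold the E-box just after the gene start, and IMP4 holds 2 copies, one of them upstream.

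Of 77 cytosolic ribosomal protein genes, 60 fell and 1 rose (0 to 2 when any 1 library was left out), by a median of only -0.15. With spike-in scaling that direction was lost, with 4 lower and 9 higher. RPS12 went from 1096 ± 19.1 to 823 ± 29.5 CPM (SD, n = 3), and ribosomal protein genes have many processed pseudogenes that can take some of their reads. Small nucleolar RNA host genes, whose introns carry the guide RNAs for ribosomal RNA modification, fell in 17 of 23 cases and rose in 1 (median -0.35, with 11 still lower with spike-in scaling). Of 20 cytosolic tRNA synthetases, which charge tRNAs with amino acids, 15 fell and 3 rose (median -0.24, with 8 lower and 4 higher with spike-in scaling). The valine enzyme VARS1 went from 136, 136 and 138 CPM to 71.7, 75.8 and 71.8 CPM. In nucleotide and one-carbon synthesis 14 of 25 genes fell and 3 rose (1 without GFP library 2, GFP library 3 or SMARCB1 library 2), or 8 and 6 with spike-in scaling, among them PRPS2, which makes the ribose precursor of nucleotides (-1.49, SE 0.03), and the serine enzyme PSAT1 (-0.74, SE 0.03). Mitochondrial ribosomal proteins fell in 45 of 76 cases (median -0.15), and with spike-in scaling 15 were lower and 20 higher, so their direction depended on the scaling.

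**Figure D2:**
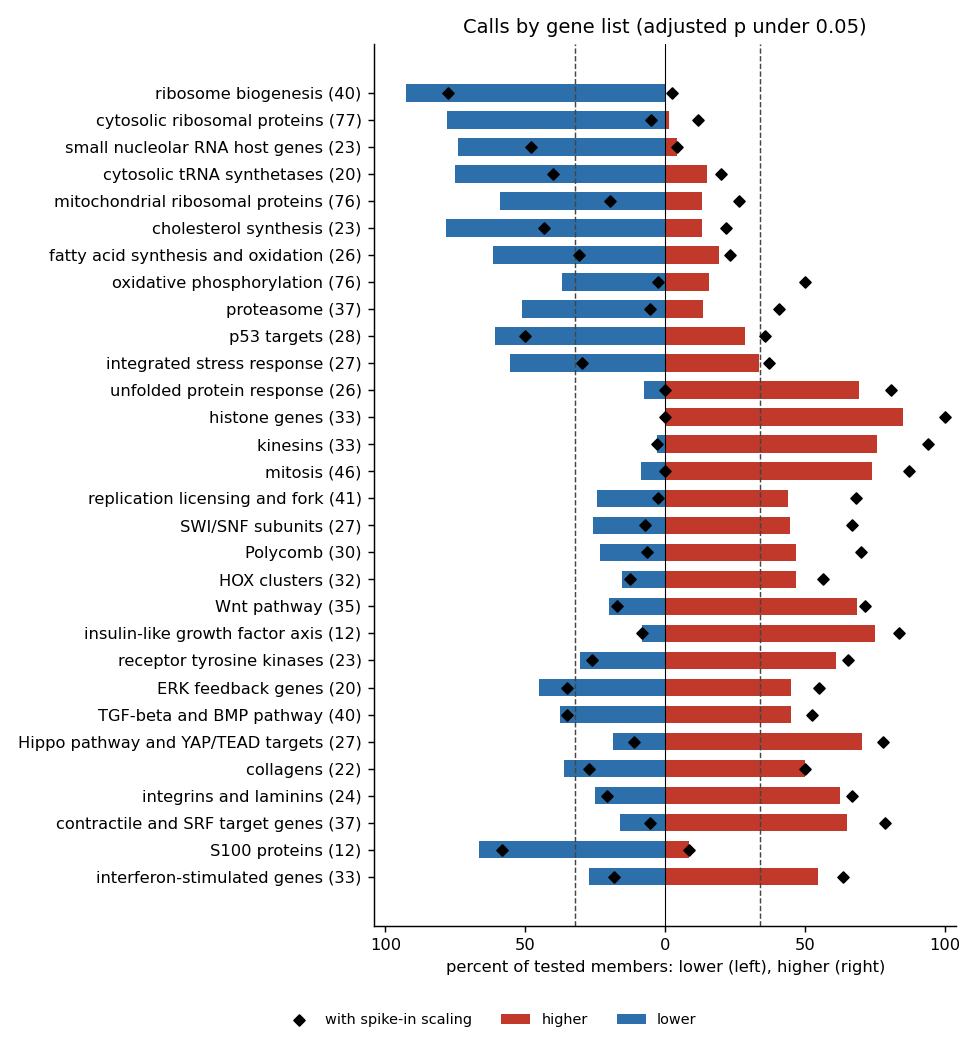
Bars give the percent of tested members that rose (right) and fell (left) in SMARCB1 libraries for each gene list, with the number tested beside its name. Diamonds give the same shares with spike-in scaling, and dashed lines mark the shares over all genes tested, 34% higher and 32.2% lower. Ribosome biogenesis stands at the lower side and histone genes, kinesins and mitosis at the higher side under both scalings.

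The cell cycle genes did not fall with the growth genes. Of 46 mitosis genes 34 rose and 4 fell, by a median of 0.23, and with spike-in scaling 40 rose and 0 fell. SPC25, a kinetochore protein, had 6.37, 6.42 and 6.38 CPM in GFP and 12.7, 13 and 12.9 CPM in SMARCB1 libraries. MKI67, which coats mitotic chromosomes and is the Ki-67 proliferation antigen, had 42.3, 48 and 42.4 CPM and 54.3, 71.5 and 83.3 CPM. Both were higher in every SMARCB1 library. The centromeric histone CENPA (0.58, SE 0.04), the spindle protein ASPM (0.57, SE 0.04) and the mitotic kinase PLK1 (0.47, SE 0.03) also rose, while CDK1, the kinase that drives entry into mitosis, did not pass the test (-0.05, SE 0.03). Kinesins, the microtubule motors, rose in 25 of 33 tested cases and fell in 1. Members outside mitosis led them, with the neuronal transport motor KIF5C at 6.96, 6.86 and 6.51 CPM in GFP and 50.5, 54.5 and 57.3 CPM in SMARCB1 libraries and KIF13B at 1.55 ± 0.192 and 8.9 ± 0.148 CPM (SD, n = 3).

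TTTGAA, the letters of the cell cycle homology region found in promoters of mitotic genes, stood on one or the other strand in 26 of 39 mitosis promoters in the RefSeq table (66.7%), and in 15.4% of all windows. CCAAT, the letters bound by NF-Y, stood in 31 of the 39 (79.5%), in 35.7% of all windows and in 26 of 30 histone gene windows (86.7%). The windows of SPC25 and CENPA, which rose most in the list with MKI67, show TTTGAA in capitals, read 5′ to 3′ on the gene's strand.
SPC25, chr2:168890381-168890680, minus strand: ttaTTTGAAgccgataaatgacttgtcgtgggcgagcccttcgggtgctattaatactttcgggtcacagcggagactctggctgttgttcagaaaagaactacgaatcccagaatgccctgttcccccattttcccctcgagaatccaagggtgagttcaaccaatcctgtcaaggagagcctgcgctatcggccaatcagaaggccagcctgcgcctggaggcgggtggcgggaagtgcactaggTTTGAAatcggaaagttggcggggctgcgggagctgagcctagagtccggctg
CENPA, chr2:26785806-26786105, plus strand: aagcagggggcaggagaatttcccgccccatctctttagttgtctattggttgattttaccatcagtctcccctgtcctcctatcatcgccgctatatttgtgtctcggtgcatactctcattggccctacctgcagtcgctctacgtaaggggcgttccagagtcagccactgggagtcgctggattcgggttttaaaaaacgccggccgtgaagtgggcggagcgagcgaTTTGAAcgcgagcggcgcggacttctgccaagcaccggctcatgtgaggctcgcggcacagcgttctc
SPC25 holds TTTGAA in both an upstream position and one near the gene start, and CENPA holds it once. Over all tested genes the letters were about as frequent in windows of genes that rose (10.5%) as in the whole (9.68%).

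Replicative histone genes and their variants rose together, with 28 of 33 higher, 0 lower and a median of 0.28. Summed over the family, they held 7487 ± 324 CPM in GFP and 9101 ± 127 CPM in SMARCB1 libraries (SD, n = 3). The linker histone H1-1 had 0.515, 0.63 and 0.397 CPM in GFP and 96.1, 100.4 and 95.2 CPM in SMARCB1 libraries, a 193-fold rise. Most replicative histone mRNAs carry no poly(A) tail, and the libraries were made with a stranded kit for polyadenylated mRNA, so these counts cover the polyadenylated part. Replication genes were mixed, with 18 of 41 higher and 10 lower (with spike-in scaling 28 and 1). Thymidine kinase TK1 rose (0.55, SE 0.04), the kinase CDC7 fell (-0.37, SE 0.04), and the helicase subunit MCM2 (-0.0033, SE 0.02) and the ribonucleotide reductase subunit RRM2 (0.02, SE 0.03) did not pass.

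The G1 regulators split by member. Cyclin D2 (CCND2, ENSG00000118971.3), a partner of CDK4 and CDK6, went from 0.177, 0.363 and 0.207 CPM in GFP to 21.8, 24.7 and 23 CPM in SMARCB1 libraries, 96.2-fold higher (adjusted p 2.01e-14). Cyclin D1 (CCND1), in the same role, went the other way, from 203, 208 and 200.1 CPM to 159, 173 and 159.9 CPM (-0.31, SE 0.03). Cyclin E2 rose (0.64, SE 0.05) while cyclin E1 fell (-0.43, SE 0.04). RB1, the pocket protein these kinases inactivate, rose (0.49, SE 0.03). All 7 CDK inhibitors were called, 5 higher and 2 lower, beside 66.2% of all genes called. Of the INK4 family, CDKN2A rose from 0.781, 0.824 and 1.09 CPM to 2.96, 2.44 and 2.51 CPM and CDKN2B from 0.302, 0.291 and 0.207 CPM to 2.25, 1.99 and 2.42 CPM, both from low levels, and CDKN2C rose from 37.6, 33.3 and 35.9 CPM to 50.3, 47.1 and 49.4 CPM. CDKN1A, which encodes p21, fell from 142, 141 and 148 CPM to 86.2, 89.7 and 83.9 CPM. CDKN1B fell slightly (-0.15, SE 0.04), and with spike-in scaling its value was 0.02 and did not pass.

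CDKN1A fell with most other p53 targets. Of 28 tested of 30, 17 fell and 8 rose, with a median of -0.29, and with spike-in scaling 14 fell and 10 rose. MDM2, the ubiquitin ligase of p53, changed by -0.62 (SE 0.03), PHLDA3 by -1.56 (SE 0.03) and the ferredoxin reductase FDXR by -0.98 (SE 0.04). The kinase PLK2 went the other way, from 2.87, 3.63 and 3.27 CPM to 142, 145 and 142 CPM. In the BCL2 family, the survival gene BCL2 fell (-1.17, SE 0.04), while the survival genes MCL1 (0.46, SE 0.03) and BCL2L1 (0.52, SE 0.03) and the death-promoting BCL2L11 (0.98, SE 0.07) rose.

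**Figure D3:**
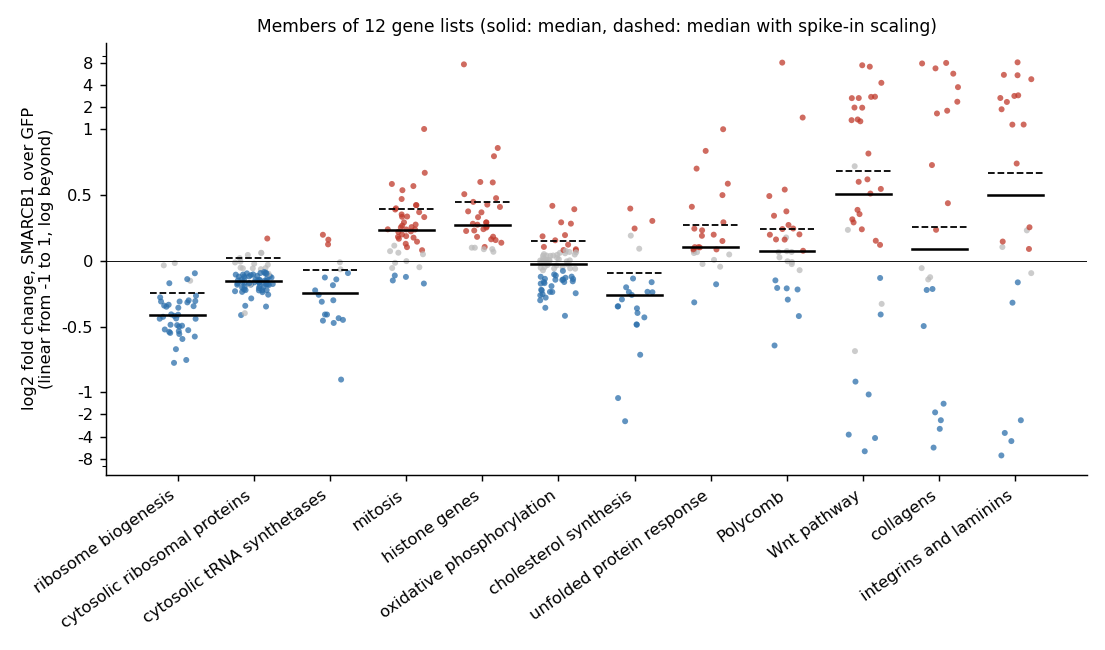
Each point is the log2 fold change of 1 tested gene in the list named on the axis, coloured red where higher, blue where lower and grey where not past the threshold, on an axis that is linear between -1 and 1 and logarithmic beyond, and bars mark the medians under the main scaling (solid) and the spike-in scaling (dashed). The called ribosome biogenesis points lie below 0, those of histone genes above 0, and ribosomal proteins sit in a narrow band whose median turns from -0.15 to 0.02.

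Most partners of SMARCB1 changed little at the RNA level. Of 27 SWI/SNF subunit genes tested, 12 rose, SMARCB1 included, and 7 fell, while apart from SMARCB1 only SMARCA2 changed by 2-fold or more. SMARCA2, the alternative ATPase, had 0, 0 and 1 counts in GFP and 12, 13 and 14 counts in SMARCB1 libraries, a level of 0.294 ± 0.0467 CPM (SD, n = 3) that stayed low. The ATPase SMARCA4, present throughout, changed by -0.26 (SE 0.03) and the scaffold SMARCC1 by -0.29 (SE 0.03), and neither passed with spike-in scaling. SMARCD3, a subunit of muscle forms of the complex, fell from 33.3, 32.9 and 32.7 CPM to 21, 18.4 and 19.3 CPM, and the PBAF subunit PHF10 from 61, 62.7 and 59.6 CPM to 38.8, 39 and 39.3 CPM. ARID1A, which defines the canonical complex (0.22, SE 0.06), PBRM1 of PBAF (0.20, SE 0.04) and SS18 (0.33, SE 0.03) rose slightly.

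Polycomb genes showed the same pattern of small core changes. EZH2, the methyltransferase of Polycomb repressive complex 2, did not pass the test, with 45.2, 42.6 and 44.8 CPM in GFP and 46.8, 46.9 and 45.5 CPM in SMARCB1 libraries (0.07, SE 0.04), and neither did its partner SUZ12 (-0.01, SE 0.03), although both passed as higher with spike-in scaling (0.24 and 0.16). Of 30 genes tested 14 rose and 7 fell. Accessory members moved most. JARID2, a cofactor of complex 2, went from 7.7, 7.92 and 7.88 CPM to 20.9, 20.3 and 22.6 CPM, and PCGF5, which defines a variant of complex 1, from 0.0887, 0.0727 and 0.0691 CPM to 21.2, 20.6 and 20.2 CPM. Among other chromatin enzymes, the lysine methyltransferase SMYD2 went from 28.2, 27.7 and 28.5 CPM to 124, 120.4 and 120.1 CPM and SETD7 rose (0.64, SE 0.03), while the de novo DNA methyltransferase DNMT3B fell (-0.85, SE 0.03).

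Embryonal RNA-binding genes stayed high. Of 13 oncofetal genes tested, 9 rose and 2 fell. LIN28A, which blocks maturation of let-7 microRNAs, went from 378, 376 and 359 CPM to 518, 538 and 539 CPM, and LIN28B (0.56, SE 0.07), IGF2BP1 (0.36, SE 0.03) and IGF2BP3 (0.59, SE 0.03) rose as well. The imprinted RNA H19 went from 5.25, 4.94 and 5.7 CPM to 31.5, 29.9 and 30.9 CPM. SALL4 changed by -0.20 (SE 0.03) and did not pass with spike-in scaling, and HMGA2, a chromatin protein of embryonic cells, did not pass (-0.01, SE 0.03).

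Lineage transcription factors changed in both directions within families. Of 35 mesoderm and muscle factors, 17 were tested, 10 rose and 5 fell. MEF2C (ENSG00000081189.9), a muscle and neural crest factor, went from 35.2, 34.6 and 32.8 CPM in GFP to 0.209, 0.201 and 0.12 CPM in SMARCB1 libraries. GATA6, an endoderm and heart factor, went from 0.106, 0.194 and 0.311 CPM to 11, 10.3 and 9.78 CPM. HAND1, a heart and limb factor, had 1, 2 and 1 counts in GFP libraries and 4.39 ± 0.138 CPM in SMARCB1 libraries (SD, n = 3). Each of these genes was close to the counting floor in one of the groups. HAND2, its relative, rose from 4.74 ± 0.285 to 10.8 ± 1.18 CPM (SD, n = 3).

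Other developmental factors fell from clear expression. The posterior HOX gene HOXB13 went from 83.5, 76 and 86.4 CPM to 29.1, 26 and 28.4 CPM, the somite factor MEOX1 from 70.4, 72.5 and 77 CPM to 18.3, 16.4 and 20.5 CPM, the forebrain factor OTX2 from 105, 100.3 and 106 CPM to 32.8, 34.3 and 36.5 CPM and the ectodermal factor DLX3 from 17.9 ± 0.812 to 3.46 ± 0.133 CPM. KLF7, a Krüppel-like factor of neurons, went from 16.4, 14.9 and 14.1 CPM to 0.183, 0.0756 and 0.0688 CPM, while its relative KLF6 rose (1.07, SE 0.04). SOX4, a factor of progenitor cells, went from 0.39, 0.436 and 0.294 CPM to 7.38, 7.51 and 7.77 CPM, while SOX15 fell (-2.56, SE 0.09). The eye and forebrain factor PAX6 went from 0.905, 0.897 and 0.691 CPM to 12.2, 11.7 and 12.7 CPM. Of 30 kidney development factors, 10 were tested, 5 higher and 5 lower, among them OSR2 (1.18, SE 0.08) and LMX1B (-0.79, SE 0.03).

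Of 39 HOX genes, which set position along the body axis, 32 were tested, 15 rose and 5 fell, with a median of 0.20 and a range from -1.56 to 2.48. FOX factors rose in 13 of 23 tested cases (56.5%) and fell in 8 (34.8%), the latter near the 32.2% of all genes. Zinc finger genes of the ZNF-named family, many of them repressors of transposable elements, were balanced only in calls of any size. Of 425, 128 were higher and 136 lower, a balance that spike-in scaling turned to 187 and 59. By at least 2-fold 30 rose and 4 fell, beside 8.16% and 6.17% of all genes.

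The AP-1 factors, which pair as dimers at enhancers, moved in opposite directions. FOS (ENSG00000170345.5) had 15.8, 16.7 and 16.4 CPM in GFP and 3.77, 2.95 and 4.23 CPM in SMARCB1 libraries (-2.14, SE 0.09). JUN (ENSG00000177606.5) had 7.72, 7.8 and 7.65 CPM and 28.8, 26.6 and 27.1 CPM (1.83, SE 0.05). The groups did not overlap for either gene. JUND (0.37, SE 0.05) and ATF3 (0.69, SE 0.04) rose, JUNB (-0.43, SE 0.09) and MAFK (-1.62, SE 0.04) fell, and FOSL2 did not pass (0.03, SE 0.04). TGANTCA, the letters AP-1 binds, stood on one or the other strand in 7.56% of 873 promoter windows of genes at least 2-fold higher, in 6.32% of 601 of genes at least 2-fold lower, in 4.3% of windows of tested genes and in 7.76% of all windows of the table.

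**Figure D4:**
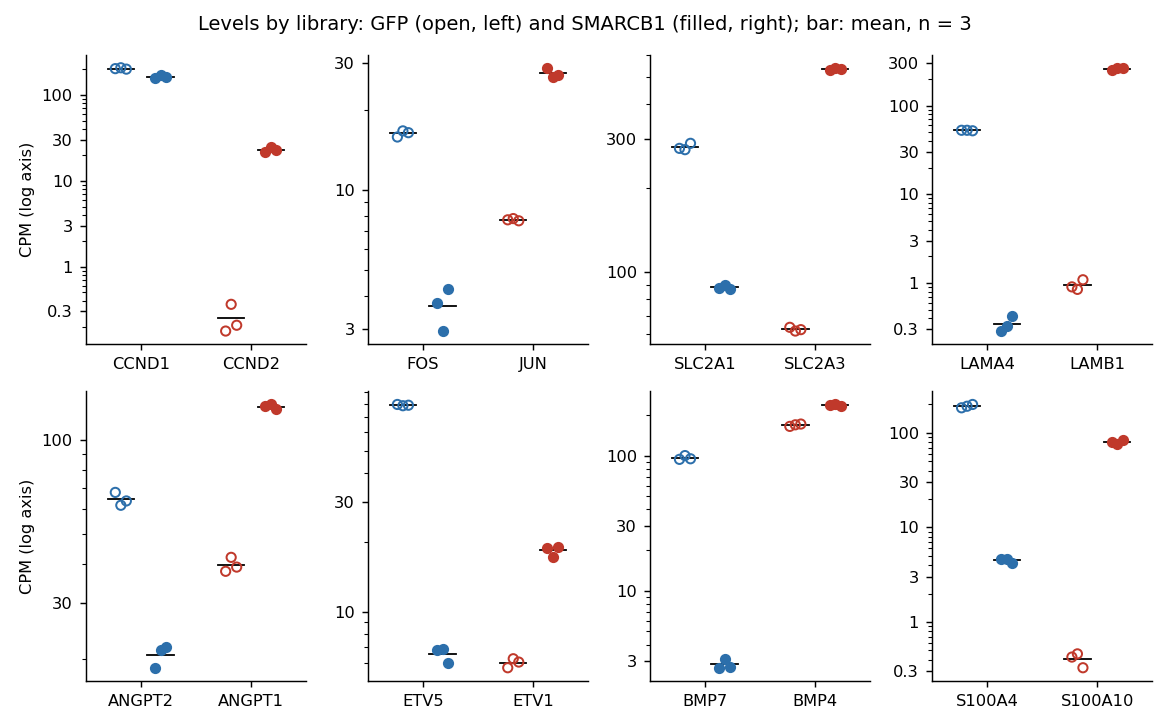
Levels in CPM on a log axis for 8 pairs of relatives picked because they moved in opposite directions, so they do not show how often relatives diverge. Each library is a point (GFP open, SMARCB1 filled), and a bar marks the mean of the 3 libraries of a group. In every pair shown the 3 GFP and 3 SMARCB1 points of a gene do not overlap, and the SMARCB1 points lie below the GFP points for one member and above them for the other.

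Genes of growth factor receptors changed in both directions. Of 39 receptor tyrosine kinases 23 were tested, of which 14 rose (60.9%) and 7 fell (30.4%), beside 34% and 32.2% of all genes. Beside the fall of PDGFRA given above, ERBB3, a partner in neuregulin signalling, went from 10.6, 10.4 and 11.2 CPM to 2.9, 2.42 and 2.48 CPM. AXL (ENSG00000167601.7), the GAS6 receptor, rose from 28, 29 and 30 CPM in GFP to 159, 163 and 155 CPM in SMARCB1 libraries (5.47-fold). MET, the hepatocyte growth factor receptor, went from 0.621, 0.388 and 0.449 CPM to 12.1, 11.8 and 12.5 CPM. The fibroblast growth factor receptor FGFR1 rose (0.52, SE 0.03) and FGFR2 fell (-0.35, SE 0.03). The ligands split likewise. ANGPT1, the activating angiopoietin, went from 38, 42.1 and 39.2 CPM to 128, 129.7 and 125 CPM, whereas ANGPT2, its context-dependent antagonist, went from 67.9, 61.8 and 63.8 CPM to 18.7, 21.4 and 21.8 CPM. FGF5 rose (3.01, SE 0.11) and neuregulin NRG1 fell (-1.56, SE 0.08).

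Genes induced by ERK signalling as feedback were as often higher (9) as lower (9) of 20 tested. The ERK phosphatase DUSP6 fell from 128, 129 and 136 CPM to 51, 53.1 and 52 CPM, SPRY4, an inhibitor of receptor signalling, fell (-1.58, SE 0.06), and the ETS factors ETV4 (-1.42, SE 0.04) and ETV5, given above, fell. ETV1, of the same ETS subfamily, rose from 5.71, 6.25 and 6.05 CPM to 18.9, 17.3 and 19.1 CPM. In the insulin-like growth factor axis 9 of 12 genes tested rose and 1 fell. The receptors IGF1R (0.89, SE 0.04) and INSR (1.20, SE 0.04) and the adaptor IRS1 (0.50, SE 0.04) rose. The binding protein IGFBP7 went from 0.905, 0.703 and 0.605 CPM to 202, 193 and 187 CPM and IGFBP3 from 64.8, 59.7 and 63.9 CPM to 189, 195 and 197 CPM, while IGFBP6 fell (-1.83, SE 0.07).

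In the Wnt pathway more genes rose than fell. Of 61 genes, 35 were tested, 24 rose and 7 fell, with 25 and 6 under spike-in scaling. DKK1 (ENSG00000107984.5), a secreted inhibitor of Wnt co-receptors, had 202, 201 and 201 CPM in GFP and 2.51, 2.85 and 2.37 CPM in SMARCB1 libraries, 78.7-fold lower. The ligand WNT11 went from 31.1, 34.2 and 31.5 CPM to 1.99, 1.39 and 1.94 CPM. The receptor FZD7 went from 7.08, 7.51 and 7.59 CPM to 50.9, 49.9 and 50.5 CPM. LGR4, the R-spondin receptor, rose by 2.66 (SE 0.04), and AXIN2, a feedback target of beta-catenin, went from 4.42, 4.36 and 4.6 CPM to 28, 29 and 27.3 CPM. CTNNB1, which encodes beta-catenin, rose (0.39, SE 0.03), and the nuclear partner LEF1 had 0, 0 and 0 counts in GFP and 15, 18 and 25 counts in SMARCB1 libraries.

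Bone morphogenetic protein and TGF-beta genes were divided, with 18 of 40 tested higher and 15 lower. The ligand BMP7 (ENSG00000101144.8) went from 93.8, 100.1 and 94.8 CPM in GFP to 2.69, 3.15 and 2.73 CPM in SMARCB1 libraries (-5.08, SE 0.06), whereas BMP4 rose (0.49, SE 0.03). The secreted glycoprotein FSTL1, a follistatin relative, went from 14.9, 15.8 and 16.5 CPM to 175, 178 and 162 CPM, and LTBP2, a relative of the latent TGF-beta binding proteins, from 112, 116 and 114 CPM to 17.4, 18 and 18.6 CPM. The receptors named here rose, TGFBR1 by 1.3 (SE 0.04) and TGFBR3 by 2.33 (SE 0.06). Target genes were split, with ID1 higher (0.43, SE 0.04) and ID2 (-0.56, SE 0.04) and ID3 (-0.42, SE 0.03) lower.

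Of 11 Hedgehog genes tested 6 rose and 2 fell. GLI1, the usual readout of the pathway, fell from 7.58, 8.14 and 7.38 CPM to 1.07, 1.03 and 0.963 CPM, while the receptor PTCH1 rose from 9.26, 9.28 and 9.57 CPM to 19.6, 20.1 and 23.7 CPM and the ligand-binding HHIP had 0, 0 and 0 counts in GFP and 65, 93 and 122 in SMARCB1 libraries. PTCH1 and HHIP are themselves known targets of the pathway. In the Notch pathway 9 of 21 tested genes rose and 10 fell, or 9 and 7 with spike-in scaling. The ligand JAG1 had 0, 0 and 1 counts in GFP libraries and 2.42 ± 0.565 CPM in SMARCB1 libraries, and RBPJ, the nuclear partner of Notch receptors, fell (-0.61, SE 0.03). Of 27 genes of the Hippo pathway and YAP/TEAD targets 19 rose and 5 fell. ANKRD1, a stretch-sensitive target, went from 0.0355, 0.17 and 0.138 CPM to 54.1, 56.3 and 55.6 CPM, and the targets CCN1 (0.72, SE 0.04), CCN2 (0.66, SE 0.04) and CRIM1 (1.42, SE 0.03) rose, while YAP1 itself changed by -0.08 (SE 0.03), a fall that did not pass with spike-in scaling, without GFP library 3 (-0.07) or without SMARCB1 library 1 (-0.06). Without GFP library 3 the count of lower members was 3.

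Cell surface and matrix genes changed strongly, with some members of the same family moving in opposite directions. Among 24 integrin and laminin genes tested, 15 rose and 6 fell, 11 and 4 of them by at least 2-fold, beside 8.16% and 6.17% of all genes. Some laminin genes had at most 3 counts in every GFP library. These entered the test only through the SMARCB1 libraries, so their rise is no separate evidence. The laminin chain LAMB1 (ENSG00000091136.9) went from 0.905, 0.848 and 1.09 CPM in GFP to 253, 262 and 267 CPM in SMARCB1 libraries. The chain LAMA4 (ENSG00000112769.14) went from 52.6, 52.6 and 52 CPM to 0.288, 0.327 and 0.43 CPM. LAMB1 was thus 271-fold higher and LAMA4 145-fold lower. Integrin alpha 6, a laminin receptor subunit (ITGA6), went from 8.69, 8.55 and 7.91 CPM to 60.3, 60.4 and 58.9 CPM, ITGA5 of the fibronectin receptor rose (1.16, SE 0.03), and ITGB6 of an epithelial integrin went from 14.6, 16.3 and 16 CPM to 0.863, 0.63 and 0.516 CPM.

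Of 38 collagen genes 22 were tested, 11 rose and 8 fell. The basement membrane chain COL4A5 went from 0.195, 0.218 and 0.294 CPM to 52.2, 53.4 and 55.8 CPM and COL4A6 from 0.0532, 0.0727 and 0.0691 CPM to 16.1, 16.4 and 16.5 CPM. COL16A1 went from 12.7, 14 and 13.8 CPM to 0.288, 0.327 and 0.223 CPM and the cartilage chain COL9A1 from 41.1, 43.8 and 40.7 CPM to 4.58, 4.03 and 5.45 CPM. The fibrillar collagens changed less, with COL1A1 lower (-1.43, SE 0.03) and COL3A1 higher (0.44, SE 0.03). Among other matrix genes, the microfibril protein FBN2 went from 227, 232 and 221 CPM to 0.549, 0.327 and 0.413 CPM, the proteoglycan VCAN rose (1.23, SE 0.06), and EMILIN2 went from 0.302, 0.267 and 0.311 CPM to 19.6, 19.1 and 18.4 CPM.

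Cell-surface proteoglycans of the glypican and syndecan families, which carry heparan sulphate, rose in 7 of 9 tested cases, SDC2 by 0.98 (SE 0.03) and GPC1 by 1.52 (SE 0.06). Guidance ligands and receptors rose in 28 of 50 tested cases and fell in 13. Besides SEMA3A, SEMA3D went from 14.1, 14.7 and 15.8 CPM to 113, 109.7 and 115 CPM, and the class 3 semaphorin receptor NRP2 from 0.692, 0.388 and 0.587 CPM to 48.3, 52.1 and 50.3 CPM. In 24 epithelial junction genes tested, 14 rose and 6 fell, with plakophilin 2 (PKP2) from 0.786 ± 0.119 to 14.6 ± 0.536 CPM (SD, n = 3). The markers CDH1 and EPCAM were under 1 CPM in both groups but moved in opposite directions. CDH1 rose from 0.0629 ± 0.0125 to 0.791 ± 0.173 CPM (SD, n = 3). EPCAM fell from between 27 and 44 counts in GFP to between 0 and 2 counts in SMARCB1 libraries. The tissue plasminogen activator PLAT went from 0.586, 0.436 and 0.587 CPM to 27.6, 24.9 and 29.3 CPM and the membrane protease MMP24 from 107, 107 and 108 CPM to 22.1, 20.4 and 22.3 CPM. The adhesion receptor ADGRG6 rose from 0.603, 0.509 and 0.553 CPM to 213, 222 and 216 CPM.

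Of 37 contractile and SRF target genes tested 24 rose and 6 fell (spike-in scaling 29 and 2). Transgelin 2 (TAGLN2) went from 11.3, 13.3 and 11.7 CPM to 68.3, 70.8 and 64.9 CPM, tropomyosin 4 (TPM4) rose (0.99, SE 0.03), and the four-and-a-half LIM protein FHL1 went from 1.72, 2.04 and 1.78 CPM to 32.4, 35.7 and 32.1 CPM. Smooth muscle actin (ACTA2) rose but was at only 0.681 ± 0.115 CPM in SMARCB1 libraries. Sarcomere genes were divided, 11 of 25 tested higher and 12 lower, and the perinatal myosin MYH8 was at 0, 0 and 0 counts in GFP and 30.1, 28.4 and 36.1 CPM in SMARCB1 libraries. Tubulins rose in 12 of 20 tested cases and fell in 3. The neuronal tubulin TUBB2B went from 19.1, 19.7 and 19.6 CPM to 166, 164 and 161 CPM and TUBB3 from 232, 224 and 231 CPM to 508, 548 and 484 CPM. TUBB2A (1.62, SE 0.03) and TUBB2B are nearly identical in sequence, so reads may have been divided between them.

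ARHGAP4, a GTPase activator, went from 15, 17.5 and 16.7 CPM in GFP to 0.288, 0.428 and 0.43 CPM in SMARCB1 libraries. RAB GTPases of vesicle traffic rose in 26 of 52 tested cases and fell in 10. Primary cilium genes were divided, 16 higher and 21 lower of 49, and spike-in scaling turned this to 18 and 8.

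The S100 calcium-binding proteins fell in 8 of 12 tested cases, and their summed level went from 390 ± 13.4 to 187 ± 4.35 CPM (SD, n = 3). S100A4 (ENSG00000196154.7), linked to cell motility, had 184, 192 and 200.1 CPM in GFP and 4.6, 4.68 and 4.19 CPM in SMARCB1 libraries. S100A6 had 27.8, 26.7 and 31.7 CPM and 0.157, 0.0756 and 0.0516 CPM. S100A10, which binds annexin A2, was the only member that rose, from 0.426, 0.46 and 0.328 CPM to 80.9, 77.1 and 84.4 CPM. Annexin A2 itself (ANXA2) rose by 0.76 (SE 0.03), and of 8 tested annexins 5 rose and 1 fell.

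The main glucose transporters moved in opposite directions. SLC2A1 (ENSG00000117394.15), which encodes GLUT1, had 278, 275 and 289.6 CPM in GFP and 88.1, 90.2 and 87.2 CPM in SMARCB1 libraries, 3.17-fold lower. SLC2A3 (ENSG00000059804.11), which encodes GLUT3, a transporter of high affinity, had 63.6, 61.7 and 62.4 CPM and 530.1, 539.8 and 535 CPM, 8.55-fold higher. Neither gene's groups overlapped (adjusted p 6.54e-15 and 6.02e-18). Hexokinase HK1 rose (1.32, SE 0.03), as did the pyruvate dehydrogenase kinase PDK1 (1.41, SE 0.06), while lactate dehydrogenase LDHA did not pass (0.03, SE 0.04). Hypoxia genes were divided, with BHLHE40 (-1.78, SE 0.04) and DDIT4, an inhibitor of mTORC1 (-1.55, SE 0.04), lower and the mitophagy receptor BNIP3L higher (1.32, SE 0.03).

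Of 23 cholesterol genes 18 fell and 3 rose (with spike-in scaling 10 and 5). STARD4, a carrier of cholesterol between membranes, had 56.4, 61.6 and 59.9 CPM in GFP and 10.9, 10.8 and 10.4 CPM in SMARCB1 libraries, and the groups were apart. SQLE (-0.36, SE 0.03) and IDI1 (-0.48, SE 0.03) fell by less, and SREBF2, the master factor of the pathway, did not pass (0.09, SE 0.05) except without GFP library 2 (0.15). In fatty acid synthesis and oxidation 16 of 26 genes fell and 5 rose (8 and 6 with spike-in scaling). The desaturase SCD went from 1269, 1299 and 1265 CPM to 571, 574 and 589 CPM, whereas its relative SCD5 rose (0.95, SE 0.06).

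Oxidative phosphorylation genes moved little, with a median of -0.03, 12 higher and 28 lower of 76, and the balance turned to 38 higher and 2 lower with spike-in scaling. In glutathione metabolism and defence against ferroptosis, the lipid enzyme ACSL4 went from 0.231, 0.363 and 0.156 CPM to 46.2, 46.3 and 46.6 CPM and the microsomal transferase MGST1 from 47.3, 48.1 and 49.4 CPM to 0.105, 0 and 0 CPM. GPX4, the lipid peroxidase, did not pass (0.04, SE 0.04), and the cystine carrier SLC7A11 changed by -0.17 (SE 0.04), which did not pass with spike-in scaling. Of 30 potassium channel genes tested 15 fell and 7 rose, KCNJ2 from 114, 123 and 118 CPM to 27.4, 31.3 and 29.3 CPM and KCNMA1 in the other direction from 0.781, 0.582 and 0.795 CPM to 44.4, 50.1 and 49 CPM.

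Genes of the unfolded protein response were mostly higher and those of the integrated stress response mostly lower. Of 26 genes of the former, which guards protein folding in the endoplasmic reticulum, 18 rose and 2 fell, with 21 and 0 under spike-in scaling. SEC24D, a coat subunit of vesicles leaving the endoplasmic reticulum, had 25.3, 25.6 and 25.3 CPM in GFP and 49.1, 52.3 and 51.6 CPM in SMARCB1 libraries. EDEM1 (0.84, SE 0.04) and SEL1L (0.70, SE 0.03), which act in the degradation of misfolded proteins, and the chaperone HSPA5 (0.24, SE 0.05) rose. Of 27 genes of the latter, which acts through the factor ATF4, 15 fell and 9 rose, although with spike-in scaling 8 fell and 10 rose. ATF4, its central factor, went from 338, 317 and 348 CPM to 223, 229 and 225 CPM, and asparagine synthetase ASNS from 104, 101 and 109 CPM to 52.1, 57.5 and 55.9 CPM. TRIB3, another target of ATF4, went from 14.7, 14.3 and 15.1 CPM to 28.8, 29.1 and 27.6 CPM, so the targets did not move as one.

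Chaperones and proteasome subunits fell more often than they rose, 19 against 9 of 37 and 19 against 5 of 37, and this balance turned with spike-in scaling to 5 against 13 and 2 against 15. Without GFP library 1, 12 proteasome genes were lower. Single members moved by more, with the small heat shock protein CRYAB falling from 274, 254 and 275 CPM to 102, 98.4 and 104 CPM and HSPB8 rising from 0.94, 1.14 and 1.05 CPM to 13.2, 12.9 and 13.4 CPM. The immunoproteasome subunit PSMB9 (-1.01, SE 0.08) and the peptide transporter TAP1 (-0.82, SE 0.04), neighbours that overlap in the annotation, fell, while the peptide-trimming enzymes ERAP1 (0.99, SE 0.03) and ERAP2 (1.07, SE 0.04) rose.

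Of 51 interferon-stimulated genes, 33 were tested, 18 rose and 9 fell. OAS3 (2.05, SE 0.09) and PARP9 (1.61, SE 0.05) rose, ISG15 did not pass (0.06, SE 0.05), and the interferon-induced membrane proteins went the other way, IFITM2 from 38.1, 36.5 and 38.7 CPM to 7.24, 6.42 and 7.55 CPM, IFITM1 by -0.96 (SE 0.04) and IFITM3 by -0.87 (SE 0.04). In class I antigen presentation 9 of 14 tested genes rose and 4 fell. The heavy chain genes resemble each other and can share reads. Of 19 cytokines and NF-kB targets tested, 12 rose and 6 fell. NFKB1 of the canonical arm rose (0.68, SE 0.03), as did the feedback deubiquitinase TNFAIP3, from 5.31, 6.11 and 5.53 CPM to 34.4, 35.5 and 34.5 CPM. NFKB2 (-0.71, SE 0.04) and RELB (-1.04, SE 0.07), which form the non-canonical dimer, fell.

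The libraries treated with dBRD9-A gave a second measurement of the same contrast with no library in common. Of 15180 genes tested there, 9554 were called (62.9%). Of the 10078 genes called in DMSO and tested there, 9787 had the same sign (97.1%), 8396 were called in the same direction (83.3%) and 43 in the opposite one. Of the 2045 of these that had changed by at least 2-fold in DMSO, 1963 were called in the same direction (96%). MYC fell there too (-1.43, SE 0.04), as did 39 of 40 ribosome biogenesis genes, and 31 of 33 histone genes and 31 of 46 mitosis genes rose. Not every list kept its balance. Of 31 HOX genes tested in dBRD9-A, 7 rose and 8 fell (median -0.0018), beside 15 and 5 in DMSO. With spike-in scaling in dBRD9-A all 40 ribosome biogenesis genes and MYC (-1.75) were lower, but 6 histone genes were higher and 4 lower, and 2 mitosis genes were higher and 23 lower, so the rise of those lists there depended on the scaling. With spike-in scaling in both treatments 69% of those 10078 genes had the same sign. Under that scaling 4429 were called in the same direction in both treatments and 939 in opposite directions. These libraries carried an added treatment, so this is the same contrast in another condition, not a repeat of the DMSO experiment.

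**Figure D5:**
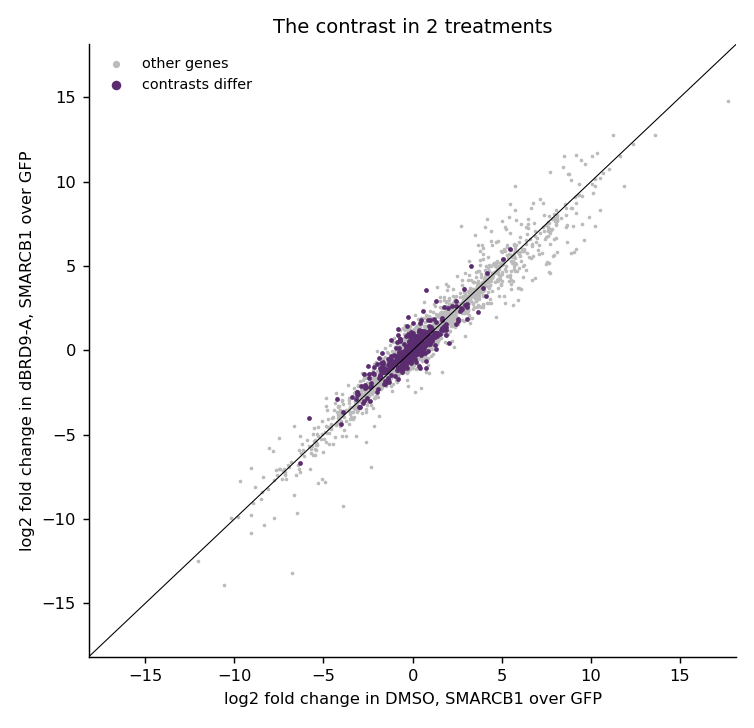
Log2 fold change of SMARCB1 over GFP in DMSO (horizontal) against that in dBRD9-A (vertical) for the 15053 genes tested in both, with no library shared between the axes. Dark points are the genes whose 2 changes differed at an adjusted p under 0.05, and the line marks equal values.

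The difference between the contrasts was tested over all 12 libraries, and 598 of 15750 genes passed (3.8%). With spike-in scaling the common shift differed between the contrasts and 11270 passed, so the difference of a single gene is relative to the main scaling. The pregnancy-specific glycoproteins, a family of secreted placental proteins, were the family with the largest share, 9 of 10. PSG9 fell in DMSO from 108, 106 and 111 CPM to 35.4, 33.1 and 31.8 CPM (-1.70, SE 0.04), while its value in dBRD9-A was -0.14 (SE 0.06). With spike-in scaling PSG9 passed as lower in dBRD9-A too (-0.46), so the size of its change there depended on the scaling. Over the family, 7 members fell and 1 rose in DMSO (median -0.73), whereas 1 fell and 7 rose in dBRD9-A (median 0.67), or 1 and 5 there with spike-in scaling. The genes of this family are near copies of each other and can share reads.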

How the data were processed

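RNA from G401 cells was sequenced in 12 libraries, of which 6 carry the comparison described. The deposited tables of the authors hold expected counts per gene, which need not be whole (2.61% of values are not). STAR, RSEM 1.3.1 and DESeq2, with the build GRCh37/hg19, are listed per the submitters' processing notes without a role, and annotation and strand setting are not given in the sources used here. Expected counts were rounded. Genes were kept by edgeR's filterByExpr (minimum count 10), scaled by TMM and tested with the quasi-likelihood test (edgeR 4.0.16, limma 3.58.1, R 4.3.3), 3 against 3 libraries with no block, with Benjamini-Hochberg adjustment over all genes tested. The script was tested on simulated data. DESeq2 1.42.0 and limma-voom were alternatives, as were spike-in scaling (40 spike-in RNAs), other filters, thresholds and leaving out each library. CPM were taken over gene counts after TMM scaling. Gene groups came from 66 lists and 31 families named by symbol. These lists, the members and the tests were chosen with earlier results of these data known. Named genes were the 8 largest rises and falls with at least 5 CPM in every library, up to 4 called members per list with the largest change, and members named for their role. Those named for the size of their change also had to show no overlap between the 3 GFP and 3 SMARCB1 libraries. Results for a few genes are not reported here. Of 236 genes named, 165 overlap another annotated gene, 140 of them on the opposite strand, so reads may be shared. Floors cover counting error only, while each SE comes from the fit and also holds the spread between these libraries.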

Additional observations from a re-analysis of the deposited data

Results flagged for a closer look

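For 47 of the genes named above, the log2 fold change of SMARCB1 over GFP differed between DMSO and dBRD9-A in a test of the difference itself over the 12 libraries (edgeR's quasi-likelihood test, Benjamini-Hochberg adjusted p under 0.05 over all genes tested). Each difference is the value in DMSO minus that in dBRD9-A under the main scaling. With spike-in scaling the median gene moved up in DMSO (0.1660) and down in dBRD9-A (-0.3187), which adds 0.49 to each difference, so a negative difference smaller than that in size turned positive. Of all genes, 598 of 15750 passed (3.8%). For 46 of the 47 the value had the same sign in DMSO and in dBRD9-A, the exception being the CDK inhibitor CDKN2C with 0.46 and -0.29 (difference 0.73, adjusted p 8e-06).

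The largest difference was that of PSG9, a pregnancy-specific glycoprotein, with -1.70 in DMSO and -0.14 in dBRD9-A (difference -1.57, adjusted p 5.04e-10). With spike-in scaling the value of PSG9 in dBRD9-A was -0.46. The glucose transporter SLC2A1 had -1.67 and -0.78 (difference -0.89, adjusted p 5.04e-10). Both values were nearer 0 in dBRD9-A. ANGPT2 had -1.64 and -1.0 (difference -0.65), and the imprinted RNA H19 had 2.53 and 1.85 (difference 0.67).

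Among genes above 0 in DMSO whose value was larger in dBRD9-A, the difference was -0.21 for AXL, -0.45 for BCL2L1, -0.41 for CLDN11, -0.32 for FOSL2, -0.19 for IGFBP3 and -0.37 for LIN28A. Likewise it was -0.46 for LIN28B, -0.53 for PLK2, -0.15 for SDC2 and -0.37 for SPARC. Among those above 0 whose value was smaller there, it was 0.21 for BMP4, 0.25 for BNIP3L, 0.30 for COL3A1, 0.29 for FZD7, 0.32 for ID1 and 0.30 for MXD4. It was also 0.27 for TUBB2A, 0.33 for TUBB2B, 0.27 for UCA1 and 0.44 for VCAN. Of genes below 0 in DMSO whose value was nearer 0 or above it in dBRD9-A, the difference was -0.23 for BCL2, -0.28 for CP, -0.43 for DDIT4, -0.64 for FGFBP3, -0.20 for FGFR2 and -0.29 for GSTM4. For others of that kind the difference was -0.27 for LINC03018, -0.44 for LTBP2, -0.21 for MDM2, -0.37 for MMP24, -0.31 for PRPS2 and -0.20 for RBPJ. Of genes that lay further below 0 in dBRD9-A, it was 0.24 for CRYAB, 0.36 for DKK1, 0.17 for DNMT3B, 0.51 for DUSP6, 0.54 for ID2 and 0.40 for ID3. In the same direction the difference was 0.18 for IDI1, 0.36 for LZTS1, 0.27 for NFKB2 and 0.36 for PHLDA3. The adjusted p of these 47 genes ranged from 5.04e-10 to 0.0488. What sets these differences was not tested.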

How the results depend on the processing

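In DMSO, the number of genes called (10271) was 8893 at an adjusted p under 0.01, 9516 with DESeq2's Wald test, 10267 with DESeq2 size factors in edgeR, 10245 with all 12 libraries in 1 fit, 10279 with limma-voom, 11079 with no count filter, 9396 with a stricter one and 9582 to 10202 when any 1 library was left out. Asking for a log2 fold change of at least 1 as well left 2224 genes, 1266 higher and 958 lower. Scaling to the spike-ins gave 2676 lower genes in DMSO, and in dBRD9-A 2010 higher and 8789 lower, and the number of genes whose change differed between the treatments went from 598 to 11270. That number was 422 to 862 when any 1 library was left out, the highest without SMARCB1 dBRD9-A library 2, and 8771 to 9614 genes were called in dBRD9-A.

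Replicate numbers are shared by the groups, and the deviations of same-numbered libraries had correlations of 0.0122, 0.0522 and -0.00887. Those of libraries with different numbers ran from -0.0631 to 0.0553. The labels do not say what equal numbers share. These correlations cannot decide it, since deviations within a group of 3 also hold counting error. With the replicate number as a block 10210 genes were called in DMSO, 9215 in dBRD9-A and 529 for the difference.

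Under spike-in scaling the median log2 fold change crossed 0 for ZNF-named genes (0.1572), chaperones (0.0835), cytosolic ribosomal proteins (0.0189), mitochondrial ribosomal proteins (0.0236), Notch genes (0.0856), nucleotide synthesis (0.0002), oxidative phosphorylation (0.1479), primary cilium genes (0.0555) and the proteasome (0.0959). The collagen median was -0.0553 with all 12 libraries in the fit and -0.1011 with the stricter filter, and that of ZNF-named genes ran from -0.0268 to 0.0022 over the fits without 1 library. Of 236 genes named, 227 kept their side of the threshold in each fit without 1 library, and 217 of the 223 called genes kept call and direction with spike-in scaling. With that scaling the values of CDKN1B (0.0203), SLC7A11 (0.0008) and YAP1 (0.0934) changed sign and did not pass. Genes that had not passed under the main scaling also changed sign. Of these, CDK1 (0.1194) and MAX (0.0459) did not pass with spike-in scaling either. FBL (0.1514), HMGA2 (0.1617), MCM2 (0.1652) and SUZ12 (0.1586) passed there as higher. The other 7 genes that had not passed, EZH2, FOSL2, GPX4, ISG15, LDHA, RRM2 and SREBF2, kept their sign and also passed there as higher. Over the fits without 1 library, values of genes that had not passed ran from -0.0044 to 0.0769 for GPX4, -0.0276 to 0.0228 for HMGA2, -0.0339 to 0.0599 for LDHA, -0.0066 to 0.0368 for RRM2, -0.0398 to 0.0156 for SUZ12 and -0.0079 to 0.0011 for MCM2, which was at 0.0012 with no count filter. Counting limits the genes at or near 0 in one group, where 3 counts in a library equal 0.0513 to 0.0782 CPM.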

Other observations

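Of 43 tested TRIM genes, a family of ubiquitin ligases with roles in innate defence, 23 rose and 11 fell, beside 34% and 32.2% of all genes. Matrix proteases and their inhibitors rose in 18 of 28 tested cases and fell in 4 under both scalings. Cadherins and protocadherins outside the gene clusters rose in 12 of 16 tested cases and fell in 2. Cytochromes P450 rose in 7 of 15 tested cases and fell in 2. Histone methylation enzymes rose in 18 of 41 cases and fell in 6.

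Splicing factors fell in 18 of 41 tested cases and rose in 8, and with spike-in scaling 20 rose and 2 fell. DNA repair genes of recombination fell in 12 of 30 cases and rose in 8, which spike-in scaling turned to 4 and 16. Among genes with at most 3 counts in every library of one group, 223 were higher and 81 lower in SMARCB1 libraries. Of all 15524 genes tested, 5280 were higher and 4991 lower. Only 80 of the 223 and 26 of the 81 reached 1 CPM in the group that expressed them. Such genes entered the test only through that group, so the direction of each followed from the filter. None of the 57 MAGE, GAGE and PAGE cancer-testis genes passed the low-count filter.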
